A study of Oncorhynchus mykiss with 18 samples.

Results

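The miRNAs described here are those that are best known from the nervous system of vertebrates, measured in the blood plasma, the skin mucus and the tank water of rainbow trout. They were taken from a table of miRNA counts by name alone: rows of known miRNAs (names that begin with ssa, from Atlantic salmon) called miR-7, miR-9, miR-124, miR-128, miR-132, miR-137, miR-138, miR-212, miR-218 or miR-219. The rule found 13 of the 4884 rows of the table, of which 4672 are predicted miRNAs named by location and the rest are known. There were 4 rows of miR-128 (ssa-miR-128-2-5p, ssa-miR-128-3-5p, ssa-miR-128-4-5p and ssa-miR-128-3p), 2 of miR-9 (ssa-miR-9a-5p and ssa-miR-9b-5p), 2 of miR-212 (ssa-miR-212a-5p and ssa-miR-212b-5p) and 1 each of miR-7a, miR-132, miR-137, miR-138 and miR-218. The rule matched no row for miR-124 and miR-219, which were not analysed here. The mature sequences were not used here either, so the miRNAs are given by name.

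The study held rainbow trout 4 to a 200 L tank and sequenced small RNA before stress (control) and 1 h after 3 min in air (stressed). Each of the 6 groups (plasma, mucus and water, control and stressed) has 3 libraries, 18 in all. Plasma and mucus were taken from other fish before stress than after it, whereas the water of a replicate was drawn from 1 tank at both times. Per the paper's methods, the fish used for control plasma and mucus were taken out first. Both water samples thus come from a tank with only the remaining fish, those then held in air. No genetic change was involved, all groups shared housing and feed, and the age of the fish is not given in the sources used here. The fish were bought from a fish farm or donated by a ministry, and which samples came from which source is not given. Per the paper's methods, RNA was extracted with different kits from plasma, mucus and water. Differences between fluids therefore cannot be told apart from differences between extraction methods. Water was passed through a filter and RNA was taken from the filter, so a water library holds what the filter kept from all sources in the tank.

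A miRNA is a short RNA cut from a hairpin precursor that pairs with messenger RNAs and lowers their output. From the precursor 2 arms can be kept, named 5p and 3p, and several copies of a gene can give the same mature arm, which then carry numbers such as miR-128-2 and miR-128-3. In vertebrates miR-9, miR-124, miR-128 and miR-138 are abundant in brain, miR-9 and miR-124 act in the making of neurons, miR-7 is also abundant in pituitary and pancreatic islet, miR-132 and miR-212 are made from 1 shared transcript that responds to neuronal activity, and miR-218 is abundant in motor neurons. None of them is found in neurons alone, and miR-128 is also present in blood and muscle cells of mammals.

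Libraries held 445067 to 23634159 counts in all and 315428 to 12858162 counts of known miRNAs. The highest total, in mucus stressed 1, is above the number of reads in the paper's quality report of that library. Totals are therefore not numbers of reads. Depth here means counts of known miRNAs and not reads sequenced, which per the paper did not differ by sample type or treatment. By this measure the 3 control water libraries were the shallowest as a group (315428 to 591733 known counts), followed by mucus (415594 to 1728386), stressed water (3061303 to 4792838) and plasma (3815302 to 12858162). Levels are given in ppm of the counts of known miRNAs in the library, beside the counts themselves, and a level is a share of a library and not an amount per volume of fluid. Differences in log2 come from edgeR, which scales libraries by TMM, and a miRNA was called at p of 0.05 or less, FDR under 0.1 over all rows tested and an absolute log2 fold change over 2. A count of 0 allows up to 3 counts, and this floor covers counting error only, since PCR reads are not independent molecules. The 3 libraries of a group come from 3 replicates of the experiment.

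At the known counts of these libraries, more of the neural miRNAs were found in plasma than in water or mucus, except in plasma control 1. Taking the 4 rows of miR-128 as 1, the table holds 10 of them, and 4 to 10 were detected (a count of 1 or more) per plasma library, 0 to 3 per mucus library, 1 to 4 per control water library and 5 or 6 per stressed water library. Plasma and stressed water libraries also had the most counts of known miRNAs, as the plot of detection against these counts shows. When all libraries were thinned to the 315428 known counts of the shallowest, the number of the 13 rows detected averaged 9.18 ± 1.95 (SD, n = 6) in plasma, 1.823 ± 1.7 (SD, n = 6) in mucus, 3.33 ± 2.52 (SD, n = 3) in control water and 7.57 ± 0.65 (SD, n = 3) in stressed water, against 11.7, 1.83, 3.33 and 8.67 unthinned. Their summed level was 2033 to 5790 ppm in plasma, 0 to 1345 ppm in mucus and 15.2 to 1212 ppm in water, with miR-128 taken as 1. After thinning, plasma control 1 (6.04 rows) and plasma stressed 2 (8.06 rows) lay below water stressed 1 (8.23 rows). Among the 13 rows miR-128 can count up to 4 times. How many of all known miRNAs each library detected was not counted here. More detection in plasma is therefore not shown to be particular to the neural miRNAs. In such bulk samples, fewer cells that release a miRNA and less of it per cell cannot be told apart.

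**Figure D1:**
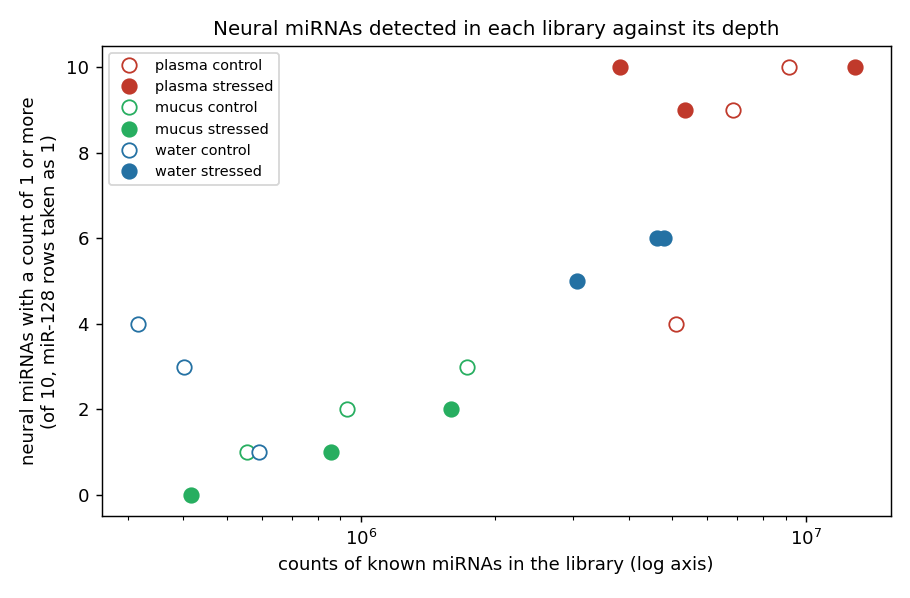
Neural miRNAs with a count of 1 or more in each of the 18 libraries (y axis, of 10, with the miR-128 rows taken as 1) against the counts of known miRNAs in that library (x axis, log scale). Open points are control and filled points stressed libraries; plasma libraries reach 10, mucus libraries 0 to 3, and plasma control 1 stands below the other plasma libraries at 4.

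In plasma most of this signal was miR-128, which made up 88.4% to 98.1% of the neural counts of a library. Elsewhere its share varied, with 38.95% to 93.4% in 5 water libraries, 85.4% in mucus control 2 and 0% in the other water library and the other 4 mucus libraries with neural counts. The mucus library with the highest summed level, mucus stressed 3, had no miR-128, and in the highest water library, water stressed 1, it made up 38.95%. In plasma the row ssa-miR-128-2-5p had 10174, 49636 and 18651 counts in control replicates 1 to 3 and 16526, 28658 and 18299 in stressed replicates 1 to 3. As levels these were 1994, 5430 and 2717 ppm in control and 4332, 2229 and 3414 ppm in stressed fish. Every plasma library held miR-128 in quantity, and control and stressed libraries overlapped. The mean level was 3380 ± 1812 ppm (SD, n = 3) in control and 3325 ± 1054 ppm (SD, n = 3) in stressed plasma. The marker used for erythrocytes, ssa-miR-144-5p, was at 708.1, 3605 and 1090 ppm in control and 1387, 421.7 and 692.0 ppm in stressed plasma, so that plasma control 2 and plasma stressed 1 were the highest of the 6 for both miRNAs. The order of the other plasma libraries differed between the 2 miRNAs. The muscle miRNAs and the sensory cluster (miR-96, miR-182 and miR-183) also peaked in plasma control 2 (618.6 and 45860 ppm). The other marker lists peaked in other plasma libraries. Plasma with visible lysis was not sequenced, per the paper's methods. The part of erythrocytes or other cells in the miR-128 levels was not tested.

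In mucus, miR-128 was counted in 1 of 6 libraries. Control replicate 2 had 667 counts of ssa-miR-128-2-5p (385.9 ppm) and the other 5 mucus libraries had 0. At the level of that library, the other 5 would have held 160 to 616 counts. The same library had the highest summed level of the leukocyte miRNAs (4 rows of miR-142, miR-150 and miR-155) of the 6 mucus libraries. This sum was 900.3 ppm against 16.8 to 164.1 ppm in the other 5, where plasma had 3989 to 7202 ppm. It rested mostly on 1 row, ssa-miR-142a-5p. In CPM scaled by TMM, that row was at 520.8 in control replicate 2, 35.5 in control replicate 3 and 0 in the other mucus libraries. For ssa-miR-150-5p, control replicate 2 had 72.3, against 50.1 in control replicate 1 and 63.4 in stressed replicate 3. For ssa-miR-155-5p it had less than control replicate 1, at 21.7 against 94.6. Mucus control 2 was also the highest of the 6 for the epithelial and skin miRNAs (183900 ppm). The same held for miR-192 and miR-194, known from gut and kidney (2904 ppm), and for miR-375 (2380 ppm). In mucus control 2 the level of ssa-miR-144-5p was 85.05 ppm and that of miR-126, the marker used for endothelium, 117.5 ppm. Both were below mucus control 1 (418.2 and 1982 ppm). The part of other cells in the miR-128 of this library was not tested.

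In water, miR-128 was counted in every stressed library and in 2 of 3 control libraries. The row ssa-miR-128-3p had 0, 201 and 166 counts in control replicates 1 to 3 and 2185, 2064 and 2489 counts in stressed replicates 1 to 3. Where it was counted, its level was 500.8 and 526.3 ppm before and 471.9, 674.2 and 519.3 ppm after stress, so the counted control libraries lay within the range of the stressed ones. This holds for the share of known counts alone. Known counts were themselves higher after stress, at 3061303 to 4792838 against 315428 to 591733. Levels per read sequenced or per volume of water were not computed, so a change in amount is not excluded. Control replicate 1, with no count in any of the 4 rows, would have held 279 counts at the lowest level seen in the other water libraries. The counted water libraries (471.9 to 674.2 ppm) lay below all 6 plasma libraries of this row. How many of all rows separate plasma from water in this way was not counted. The log2 difference of this row, plasma over water, was 2.27 (FDR 0.258 by edgeR), near the median of all rows tested (1.85).

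The 4 miR-128 rows were close to being 1 measurement. The rows ssa-miR-128-2-5p and ssa-miR-128-3-5p had identical counts in all 18 libraries. Among the rows with a count in a library, the highest and lowest differed by at most 1.44%, as in plasma control 1 with 10174 and 10027 counts. Of 24 pairs of a 5p and a 3p row in the whole table, 14 had equal counts (within 0.5 percentage points of an even split) in each library that had both. Mature arms of 1 precursor seldom accumulate equally, so the rows are read here as miR-128 as a whole and not as arms or copies.

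**Figure D2:**
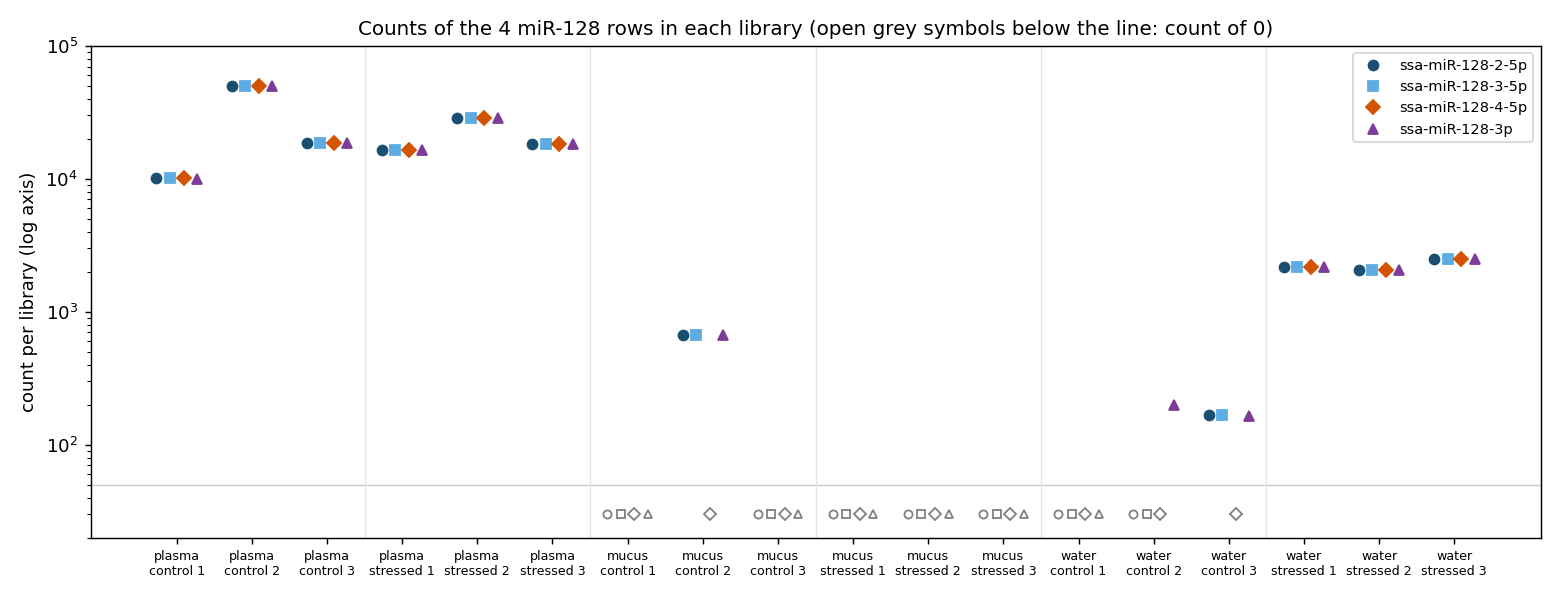
Counts of the 4 miR-128 rows in each library (y axis, log scale; x axis, libraries by sample type, treatment and replicate), with rows at 0 drawn as open grey symbols under the line. In plasma and stressed water the 4 rows lie on top of each other, while ssa-miR-128-4-5p is at 0 in mucus control 2 and water control 3, where the other 3 rows are counted, and ssa-miR-128-3p alone is counted in water control 2.

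The rows differed in which libraries listed them at 0. The row ssa-miR-128-4-5p had 10174, 49620 and 18651 counts in control plasma and matched ssa-miR-128-2-5p in stressed plasma and stressed water, but had 0 counts in all 6 mucus and all 3 control water libraries. Mucus control 2 and water control 3 had 667 and 168 counts of ssa-miR-128-2-5p and none of ssa-miR-128-4-5p, and water control 2 had 201 counts of ssa-miR-128-3p and none of the other 3 rows. The share of ssa-miR-128-2-5p in the sum of ssa-miR-128-2-5p and ssa-miR-128-3p averaged 50.1% in plasma (n = 6) and 40.1% in water (n = 5), a difference of 10.1 percentage points that rests on water control 2, at 0%. Without that library the difference was 0.0486 points. By a 2-sided exact permutation test p was 0.264 (adjusted over 4 shares, 1.0). The share of ssa-miR-128-4-5p among the 5p rows averaged 33.3% in plasma (n = 6) and 25.0% in water (n = 4), with an exact permutation p of 0.8 (adjusted, 1.0), and without water control 3 the difference was -0.00119 points. As the rows are close to 1 measurement, these tests can register only a row listed at 0. They cannot show the use of arms or copies, and they did not pair the water libraries of a tank.

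The next most abundant was miR-7a, which was all or none. This miRNA, known from hormone-secreting as well as nerve cells, had 0, 2980 and 2142 counts in control plasma and 1422, 3421 and 2111 in stressed plasma. The 5 counted plasma libraries lay between 266.1 and 393.8 ppm. Plasma control 1 had none, where 1360 counts would be had at the lowest of these levels. In mucus only stressed replicate 3 was counted, with 2008 counts (1258 ppm), above every plasma library. In water, control replicate 3 had 101 counts (320.2 ppm) and stressed replicate 1 had 3185 (687.9 ppm), while the other 4 libraries had 0. Stressed water replicates 2 and 3 would have held 980 and 1530 counts at 320.2 ppm. The rule for values by library would not have named miR-7a, and it is given because its zeros stood out.

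Such zeros were not particular to the neural miRNAs. Among all known miRNAs, with identical rows taken once, 40 (20.6%) had a zero in a library where the lowest counted level in any library would give 100 counts or more. Among the 10 neural miRNAs these were miR-128 and miR-7a, 2 of 10 (20.0%).

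**Figure D3:**
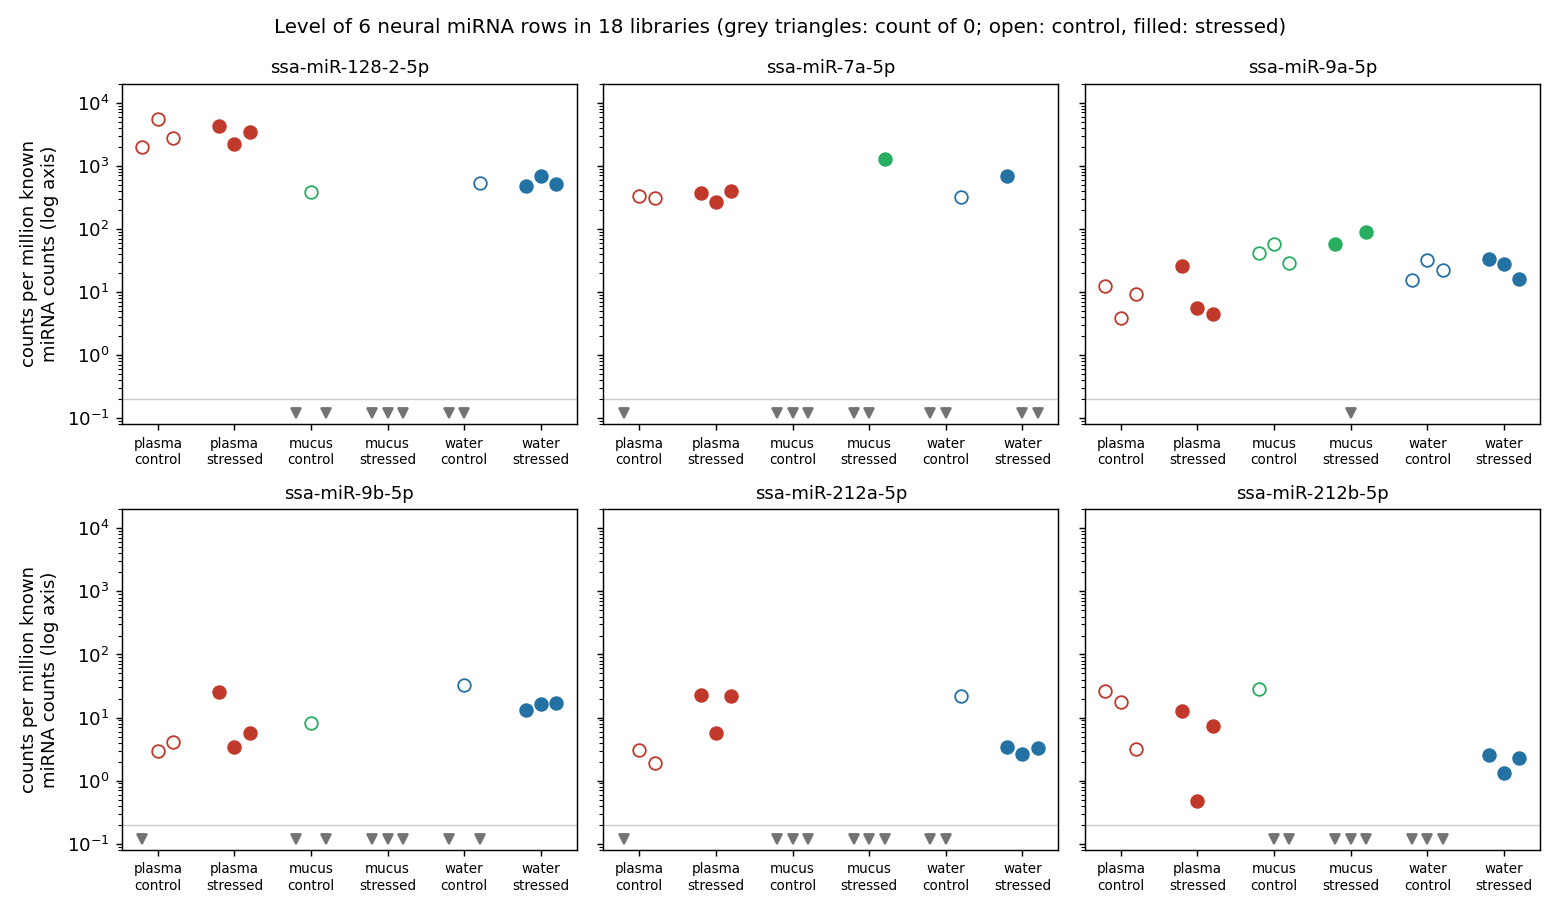
Level of 6 neural miRNA rows in the 18 libraries (y axis, ppm of the counts of known miRNAs, log scale; x axis, groups of 3 libraries), with zeros drawn as grey triangles under the line. Where counted, miR-128 sits at 1994 ppm or more in plasma and between 385.9 and 678.1 ppm in mucus and water. The row of miR-9a is counted in all but 1 library, a mucus library. In the 5 counted mucus libraries it lies above all plasma libraries.

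The miR-9 rows had another distribution. With miR-124, miR-9 is a defining miRNA of nerve tissue, and miR-9a was the member seen in most libraries, 17 of 18, at low counts. Plasma had 64, 35 and 63 counts in control and 97, 71 and 24 in stressed fish. Mucus had 39, 100 and 16 counts in control and 49, 0 and 140 in stressed fish. Water had 9, 13 and 7 counts before and 153, 83 and 76 after stress. As levels, plasma had 3.83 to 25.4 ppm, water 15.2 to 33.0 ppm and the 5 counted mucus libraries 28.8 to 87.7 ppm. The only zero, mucus stressed 2, was in a library where 12 counts would be had at the lowest mucus level. Levels in all 5 counted mucus libraries were above those of all plasma libraries, and water and plasma overlapped through plasma stressed 1. Over all rows such separations of mucus from plasma were not counted.

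The relation of miR-128 to miR-9a within a library, which no scaling touches, separated plasma from the other fluids. There were 159 to 1420 counts of miR-128 per count of miR-9a in the 6 plasma libraries, with a median of 350. The ratio was 14.3 to 32.8 in the 5 water libraries with both, and 6.67 in mucus control 2. In water it was 15.5 and 24 before stress and 14.3, 25.0 and 32.8 after stress. This ratio was chosen after its values were seen and is a description. Fluid and extraction kit cannot be told apart in it.

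The row ssa-miR-9b-5p, from another form of miR-9, was counted in fewer mucus libraries than miR-9a. Like miR-7a, it would not have been named by the rule for values by library. It had 0, 27 and 28 counts in control plasma and 97, 44 and 30 in stressed plasma. In mucus only control replicate 2 was counted, with 14 counts (8.10 ppm). Water had 0, 13 and 0 counts before and 61, 51 and 83 after stress, and the stressed libraries (13.2 to 17.3 ppm) lay below the counted control library (32.4 ppm). At the level of mucus control 2, the other mucus libraries would have held 3.37 to 12.9 counts, near or above the limit that a count of 0 allows.

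Of the activity-linked pair, miR-132 was counted in plasma alone, and miR-212 in plasma, in water and in 1 mucus library. The row ssa-miR-212a-5p had 0, 28 and 13 counts in control and 86, 72 and 118 in stressed plasma, none in mucus, and 0, 0 and 7 in control and 16, 8 and 16 in stressed water. All stressed plasma libraries (5.60 to 22.5 ppm) were above all control ones (0 to 3.06 ppm), for a row picked from the 11 tested in plasma. It was not called (FDR 0.993 by edgeR), and how many of all rows separate in this way was not counted. The row ssa-miR-212b-5p had 22 to 161 counts in control and 49, 6 and 40 in stressed plasma. As levels these were 26.1, 17.6 and 3.20 ppm in control and 12.8, 0.467 and 7.46 ppm in stressed plasma, and the groups overlapped. In mucus only control replicate 1 had ssa-miR-212b-5p, with 26 counts, and in water it was found only after stress, with 12, 4 and 11 counts. Control water had too few known counts to read this, since 0.412 to 0.773 counts would be had there at the lowest stressed level. Of miR-132 there were 7 to 18 counts in 3 plasma libraries and none elsewhere, at a depth in mucus and water where its lowest counted level would give at most 2.61 counts.

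The remaining members were near the limit of counting. In plasma, miR-218 had 1, 18 and 12 counts in control and 20, 6 and 4 in stressed fish, and its only count elsewhere was 7 in water stressed 3. There were up to 25 counts of miR-137, which acts in the maturation of neurons, and up to 46 of miR-138, known from dendrites, in 5 of 6 plasma libraries, and plasma control 1 had neither. Both were at 0 in all mucus and water libraries. Their mean plasma level was at least 3.53-fold (miR-137) and 6.38-fold (miR-138) higher than the floor of 3 counts pooled over the 6 mucus libraries. Against the same floor over the 6 water libraries it was at least 8-fold and 14.4-fold higher. These bounds take 1 level shared by the libraries at 0, and shallow libraries with a higher level would lower them. For miR-132 the bounds were 1.74-fold and 3.93-fold, and for miR-218 against mucus 3.51-fold. Without plasma stressed 3 the bounds fell to 2.34-fold and 5.30-fold for miR-137 and to 4.17-fold and 9.44-fold for miR-138, against mucus and water in that order. Without plasma stressed 1 they fell to 1.02-fold and 2.31-fold for miR-132 and to 2.08-fold for miR-218. In plasma, control replicate 1 had the fewest neural miRNAs, 4 of 10, although it was deeper than stressed replicate 1, which had 10 of 10.

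Which neural miRNAs change 1 h after air exposure was asked in each sample type. In plasma 11 of the 13 rows had enough counts to be tested and none was called, where 0% of the 365 rows tested were called. Over all rows 18 had an unadjusted p under 0.05, and none of them was a neural miRNA. In a DESeq2 test of all rows, 0 neural miRNAs were called in plasma too. The log2 fold change, stressed over control, was -0.08 ± 0.47 (SE) for ssa-miR-128-2-5p, at the median of all rows tested (-0.08). It was 3.12 ± 1.79 for ssa-miR-212a-5p (FDR 0.993 by edgeR), the furthest from 0 of the 11, and -1.39 ± 1.39 for ssa-miR-212b-5p. Values were 1.86 ± 1.85 for ssa-miR-9b-5p, 1.29 ± 1.91 for miR-138, 0.61 ± 1.95 for miR-7a, 0.27 ± 1.48 for miR-218 and 0.21 ± 1.15 for miR-9a. The 11 rows had a median of 0.21, and 6 of the 11 were above 0, with all 4 miR-128 rows just below it. That count turned with the scaling, as 11 of 12 rows tested were above 0 with RLE factors (median 0.36, all rows 0.0117) and with library totals alone (median 0.64, all rows 0.10). The SEs of all but miR-128 were above 1, so that changes of several-fold were not detectable.

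**Figure D4:**
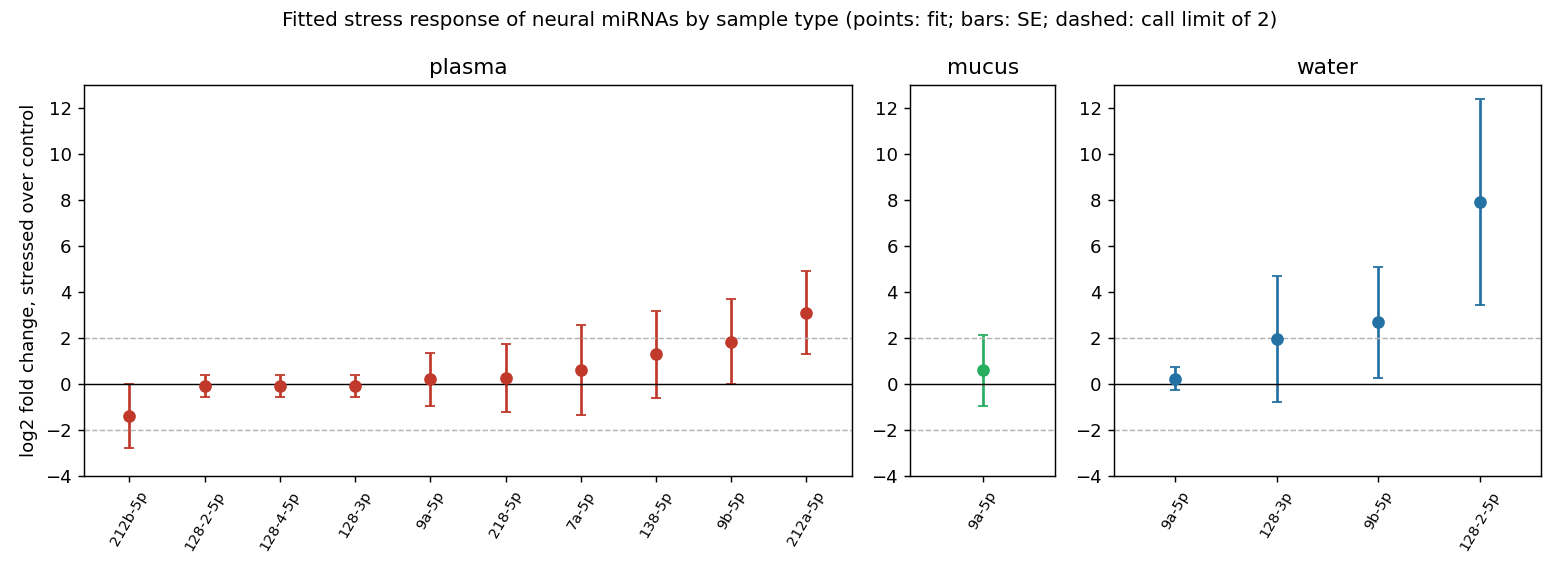
Fitted log2 fold change of neural miRNAs, stressed over control (y axis), in plasma, mucus and water, with bars of 1 SE and dashed lines at the limit of 2 that a call needs. The row ssa-miR-128-3-5p, equal to ssa-miR-128-2-5p, and the water value of ssa-miR-128-4-5p, which is at 0 in all control libraries, are left out. In plasma the miR-128 rows lie at 0 with the narrowest bars, and ssa-miR-212a-5p is highest at 3.12; in water ssa-miR-128-2-5p is at 7.93 and miR-9a at 0.25.

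In mucus only miR-9a had enough counts for a test, and it was not called (log2 fold change 0.60 ± 1.54, FDR 0.994 by edgeR), where 0.671% of the 149 rows tested were called. Mean levels of miR-9a were 42.8 ± 14.6 ppm (SD, n = 3) in control and 48.3 ± 44.5 ppm (SD, n = 3) in stressed mucus. Over all rows 4 had an unadjusted p under 0.05, and miR-9a was not among them. Apart from miR-9a, no neural miRNA was counted in more than 1 of the 6 mucus libraries.

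In water 6 rows were tested with the tank as a block and none was called, where 1.82% of the 165 rows tested were called, all of them lower after stress. Over all rows 28 had an unadjusted p under 0.05. Among the neural rows only ssa-miR-128-4-5p did. This row went from 0 counts in each control library to 2186, 2076 and 2481 in the stressed ones (FDR 0.242 by edgeR). Its mean level after stress was at least 242-fold higher than 3 counts over the control group. That bound holds for this row alone and not for miR-128 as a whole. The highest miR-128 row was at 500.8 and 532.6 ppm in control replicates 2 and 3, and at 472.1 to 678.1 ppm after stress. Calls of ssa-miR-128-4-5p came in 4 alternatives, as given in the closing section, among them DESeq2 (adjusted p = 0.00996). The row ssa-miR-128-2-5p and its equal ssa-miR-128-3-5p, which DESeq2 called too (adjusted p = 0.0372), had a log2 fold change of 7.93 ± 4.48 (FDR 0.447 by edgeR) and ssa-miR-128-3p one of 1.97 ± 2.73 (FDR 0.720). The 3 rows have 3, 2 and 1 control libraries at 0, in that order, while their counts in a stressed library differ by at most 0.578%. With the 4 rows taken as 1, an alternative added after the data were seen, the value was 1.97 ± 2.70 (FDR 0.719). For miR-9a, counted in all 6 water libraries, it was 0.25 ± 0.49 (FDR 0.788), and mean levels were 23.3 ± 8.64 ppm (SD, n = 3) before and 25.3 ± 8.73 ppm (SD, n = 3) after stress. For ssa-miR-9b-5p it was 2.69 ± 2.42 (FDR 0.584).

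The study itself named miR-128 rows from these samples, so these counts are no independent evidence on them. The stressed water libraries also had more counts of all known miRNAs, 3061303 to 4792838 against 315428 to 591733, and 3 counts over the group amount to 2.29 ppm before and 0.240 ppm after stress. The epithelial and skin miRNAs (9 different rows of miR-200, miR-203, miR-205 and miR-429) took 92400 to 116900 ppm before and 104300 to 136900 ppm after stress. The leukocyte miRNAs took 532.3 to 707.0 and 449.6 to 548.1 ppm, and miR-126 took 226.5 to 843.3 and 447.5 to 643.5 ppm, in the same order. For miR-375 the ranges did not overlap, at 760.5 to 1014 and 1742 to 3947 ppm. The sensory cluster (miR-96, miR-182 and miR-183) took 2139 to 2960 and 2910 to 6796 ppm. Values were 842.1 to 1920 and 750.1 to 1194 ppm for miR-192 and miR-194, and 6.76 to 44.38 and 10.13 to 34.64 ppm for miR-144. Their part in the water values of miR-128 was not tested.

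In which fluid each neural miRNA is found was asked over all 18 libraries, with the mean of control and stressed groups compared between sample types. The fit took the 18 libraries as independent. Control and stressed water of a replicate come from 1 tank, and plasma and mucus of a replicate and treatment from 1 fish. The FDRs of these comparisons and an n of 6 for water do not allow for this. Each fluid had its own extraction kit, which these comparisons cannot separate from the fluid. Of the 9 neural rows tested, 6 were called between plasma and mucus, where 51.2% of the 346 rows tested were called. As 4 of the 6 are rows of miR-128, taking these as 1 left 3 of 6 called, where 50.7% of all rows were called. The 4 miR-128 rows and ssa-miR-212a-5p were higher in plasma (32.9% of all rows were called higher) and miR-9a was lower (18.2% of all rows). For ssa-miR-212a-5p, plasma was at least 18.6-fold higher than mucus, as a mean level against 3 counts over the 6 mucus libraries. For ssa-miR-128-2-5p and ssa-miR-128-3p, with 1 counted mucus library, the fitted log2 differences of 10.26 ± 2.64 (FDR 0.00955) and 10.26 ± 2.37 (FDR 0.00543) depend on how groups at 0 are treated. With miR-128 taken as 1, mean levels were 3353 ± 1326 ppm (SD, n = 6) in plasma and 64.3 ± 157.5 ppm (SD, n = 6) in mucus, a ratio of 52.1 in which the mucus mean comes from 1 library.

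The level of miR-9a was 10.2 ± 8.17 ppm (SD, n = 6) in plasma and 45.5 ± 29.8 ppm (SD, n = 6) in mucus, a log2 difference, plasma over mucus, of -2.88 ± 0.96 (FDR 0.0276). The median of all rows was 1.98 in this comparison, 2.66 with RLE scaling and 3.64 with library totals alone, so that relative to the median of all rows miR-9a lay at -4.86, -5.26 and -5.26. The call was lost without mucus stressed 1, mucus stressed 3, mucus control 2, mucus control 3, plasma stressed 3 or water control 3 (FDR 0.101 to 0.162). With a block for the replicate number within a treatment the FDR was 0.104 for miR-9a and 0.106 for ssa-miR-212a-5p, and both calls were lost. Both were also lost with no filter and with DESeq2 (adjusted p = 0.298 for miR-9a and 0.337 for ssa-miR-212a-5p), and that of miR-9a with library totals alone (-1.62, FDR 0.216). A marker of hormone-secreting epithelial cells, miR-375, ran in the same order, with 55.3 to 353.8 ppm in plasma and 226.2 to 2380 ppm in mucus, and the epithelial and skin miRNAs took 620.2 to 11900 ppm in plasma and 71910 to 183900 ppm in mucus. Their part in the miR-9a difference was not tested. The value for miR-7a was 5.70 ± 3.42 (FDR 0.180), and 1 mucus library, mucus stressed 3, held 1258 ppm. Without that library it was 12.87 and was called (FDR 0.0780 by edgeR), and DESeq2 called it with all libraries (11.35, adjusted p = 0.00522). Mean levels of miR-7a were 278.4 ± 143.7 ppm (SD, n = 6) in plasma and 209.6 ± 513.5 ppm (SD, n = 6) in mucus. With control mucus at 0, the fitted sizes depend on how zeros are treated.

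Between plasma and water 1 of 9 neural rows was called, where 43.9% of the 346 rows tested were called, 28.9% higher and 15% lower in plasma. This was ssa-miR-128-4-5p (9.03 ± 0.89, FDR 0.000112), the row at 0 in all control water libraries, so its size depends on how these zeros are treated. The other miR-128 rows, with higher counts in plasma too, were at 2.86 ± 1.74 (ssa-miR-128-2-5p, FDR 0.212) and 2.27 ± 1.52 (ssa-miR-128-3p, FDR 0.258), and the median of all rows was 1.85. The level of miR-9a in water was 24.3 ± 7.85 ppm (SD, n = 6), and its log2 difference, plasma over water, was -2.005 ± 0.93 (FDR 0.102), just past the limit of 0.1. For miR-7a it was 0.30 ± 2.36 (FDR 1.00). With miR-128 taken as 1, no neural row was called.

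Between mucus and water 4 of 9 neural rows were called, all lower in mucus, where 14.7% of all rows were called, 7.51% higher and 7.23% lower. They were ssa-miR-128-2-5p and ssa-miR-128-3-5p (-7.40 ± 2.48, FDR 0.0762), ssa-miR-128-3p (-7.98 ± 2.24, FDR 0.0560) and ssa-miR-212a-5p (-7.38 ± 2.20, FDR 0.0602). Each has groups at 0, so these sizes depend on how zeros are treated. Taking the miR-128 rows as 1 left 2 of 6 neural rows called, where 14.3% of all rows were called. For ssa-miR-212a-5p, at 0 in all mucus libraries, water was at least 10.7-fold higher, or at least 3.82-fold without water control 3, where 7 counts make 22.2 ppm. Leaving out any library but mucus control 2 ended the call of ssa-miR-128-2-5p, and leaving out any but plasma control 1 ended that of ssa-miR-212a-5p. The number of calls was then 0 to 3, and it was 0 without mucus stressed 1, 2 or 3, mucus control 3, water control 2 or 3, or water stressed 2 or 3. With a replicate block 1 call was left, ssa-miR-128-3p. For miR-9a the log2 difference, mucus over water, was 0.88 ± 0.91 (FDR 0.719), and for miR-7a -5.40 ± 3.40 (FDR 0.383), which DESeq2 called (-10.39, adjusted p = 0.0129). Mean levels of miR-7a ran the other way, at 209.6 ± 513.5 ppm (SD, n = 6) in mucus and 168.0 ± 285.1 ppm (SD, n = 6) in water. The mucus mean comes from 1 library, and the fitted size depends on how zeros are treated.

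Whether the stress response differed between fluids was tested by the interaction. For plasma minus mucus 0 of 9 neural rows were called (1.45% of all rows), and for water minus mucus 0 of 9 (0.867% of all rows). At an unadjusted p under 0.05 the 3 miR-128 rows other than ssa-miR-128-4-5p passed in both, and ssa-miR-212b-5p, with groups at 0, in the latter. The values were 11.98 ± 4.86 and 14.06 ± 4.93 for ssa-miR-128-2-5p, and both values rest on the 1 mucus library with counts. Without mucus control 2 they were -0.04 and 2.02 (FDR 1.00 for both). DESeq2 called 4 neural rows in each of these comparisons, 3 positive and 1 negative. Of all rows DESeq2 called 0.719% and 0.603%, in that order. Among the 4 were ssa-miR-128-2-5p and its equal ssa-miR-128-3-5p, which are 1 measurement with counts in 1 mucus library. Taking the miR-128 rows as 1 was not tried with DESeq2, so these are not 4 separate results. For plasma minus water 1 of 9 was called (0.289% of all rows), ssa-miR-128-4-5p at -14.42 (FDR 0.00736 by edgeR), where its control water group is at 0. With a replicate block it was not called (FDR 0.842). The row ssa-miR-128-2-5p had -2.08 in the same test (FDR 1.00).

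By the rule for likeness, the known miRNAs with the nearest profile over the 18 libraries (smallest root mean square difference of centred log2 CPM) were named for the 4 most abundant rows. For ssa-miR-128-3p they were miR-142a-5p (2.85), miR-125a-2-3p (3.20) and miR-125a-5p (3.26). For ssa-miR-128-2-5p they were miR-16a-5p (2.36), miR-125b-5p (2.63) and miR-214-5p (3.19), and for ssa-miR-128-4-5p miR-16a-5p (2.23), miR-125b-5p (2.90) and let-7j-5p (3.11). For miR-7a they were miR-7132b-5p (3.08), miR-130b-2-5p (3.46) and miR-29a-3p (3.92). The nearest miRNAs differed between the miR-128 rows, and the distances of 2.23 to 3.92 log2 units are descriptions over 18 libraries that share depth and zeros.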

How the data were processed

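Small RNA libraries of plasma, mucus and water (3 control and 3 stressed of each) were grouped by their labels. Per the paper's methods and the submitters' notes, the authors trimmed reads with cutadapt 2.10 and used the miARma-Seq workflow (1.7.2) to align them with bowtie 1.1.1 on Omyk_1.0 and to assign them with miRDeep2 2.0.1.2. The deposited table holds estimated counts per miRNA, with no normalization; all values are whole numbers, so rounding changed none, and 34 known rows share their counts with another known row. It has 0 columns of other samples. The authors' own comparison tables (fold changes, p-values and related statistics) were not used. The members and the marker lists were chosen with earlier results of these data known. Of the markers listed, miR-141, miR-215, miR-223 and miR-451 matched no row and were not analysed here.

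Counts were tested in R 4.3.3 with the quasi-likelihood test of edgeR 4.0.16 after filterByExpr and TMM: by sample type, as in the study, with a tank block in water alone, and over 18 libraries for differences between sample types. Alternatives were RLE factors, library totals, no filter, known miRNAs alone, identical rows kept once, DESeq2 1.42.0, the study's edgeR test, a replicate block, leaving out each library and, added after the data were seen, the miR-128 rows taken as 1. In tests by sample type the replicate block was the replicate number. Over 18 libraries it was the replicate number within a treatment, so control and stressed water of 1 tank were not paired there. The edgeR test was checked on simulated data of lower dispersion than the 1.23 (water) to 2.71 (all libraries) fitted here. That check therefore does not cover data as variable as these. Shares of rows within miR-128 used libraries with at least 20 counts. Values by library were named for members counted in all 6 libraries of a sample type or called in any comparison, and the 3 nearest known miRNAs were named for the 4 most abundant rows. Values of miR-7a and ssa-miR-9b-5p were given outside this rule. No 2 libraries of a group agreed within sampling noise.

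As a check of the replicate numbers, deviations from group means were compared, and control and stressed water of the same tank were weakly correlated (r = 0.178, 0.166 and 0.0738). Each was the best match of its number, with the best other match at -0.00394, 0.139 and 0.0386. Libraries of different numbers reached 0.38 in stressed plasma and mucus, so this check is weak. Plasma and mucus libraries of the same number and treatment came from 1 fish, per the paper's methods, with correlations of -0.214 to 0.306. Control and stressed plasma or mucus of a number came from different fish of 1 experimental replicate, with correlations of -0.185 to -0.0276.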

Additional observations from a re-analysis of the deposited data

Results flagged for a closer look

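The stress response of ssa-miR-128-4-5p differed between plasma and water in the interaction test (log2 difference, plasma minus water, -14.42, FDR 0.00736 by edgeR over 346 rows). In plasma the row had 10174, 49620 and 18651 counts in control and 16526, 28658 and 18299 in stressed libraries. In water it had 0 in each control library and 2186, 2076 and 2481 in the stressed ones, so the size of the difference depends on how zeros are treated. The call was lost without water stressed 1, plasma stressed 1 or plasma stressed 3 (FDR 0.102 to 0.181) and with a replicate block (-14.35, FDR 0.842). The rows ssa-miR-128-2-5p and ssa-miR-128-3p, whose counts in stressed water and plasma differ from those of ssa-miR-128-4-5p by at most 1.44%, were not called. With the 4 rows taken as 1 the difference was -0.93 (FDR 1.00).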

How the results depend on the processing

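Of the alternatives, those that leave out a library gave 0 neural miRNAs called for stress in plasma, mucus and water, 5 to 7 for plasma vs mucus (6 in the analysis as reported), 1 to 3 for plasma vs water (1), 0 to 3 for mucus vs water (4), 0 for the interactions of plasma or water with mucus, and 0 to 1 for plasma minus water (1). The count of 3 for plasma vs water came without water control 3. With a library left out, 22% to 40% of all rows were called for plasma vs mucus. Shares were 15% to 30.4% for plasma vs water, 2.53% to 8.39% for mucus vs water and 0% to 0.645% for plasma minus water. Leaving out 1 library in a group of 3 assumes that the remaining libraries vary like the others. For stress in water, 1 neural miRNA (ssa-miR-128-4-5p) was called with known miRNAs alone (FDR 0.0754), where 4.1% of all rows were called. It was also called with the study's edgeR test (FDR 4.83e-05, 9.09% of all rows) and with no replicate block (FDR 0.00335, 8.48%). DESeq2 called 3 (ssa-miR-128-4-5p, ssa-miR-128-2-5p and ssa-miR-128-3-5p), and 5.11% of all rows. For plasma vs mucus, with the share of all rows called in brackets, 3 of 6 were called with the miR-128 rows as 1 (50.7%). There were 4 calls with no filter (1.17%), and 5 with DESeq2 (2.81%) and with identical rows kept once (49.3%). Calls were 7 with RLE factors (53%) and with known miRNAs alone (55.4%), and 8, all higher in plasma, with library totals (63.2%). For plasma vs water 2 were called with RLE factors (49.3%), with known miRNAs alone (45.8%) and with identical rows kept once (41.2%). Library totals gave 3 (51.2%), and no filter (0.635%) and the miR-128 rows as 1 (43.7%) gave 0. For mucus vs water 2 were called with library totals (8.7%) and with the miR-128 rows as 1 (14.3%). Calls were 0 with no filter (0.573%), 1 with the replicate block (6.07%) and 3 with identical rows kept once (12.1%). Known miRNAs alone (19.3%) and DESeq2 (1.39%) gave 5 each. DESeq2 called 4 each in the interactions of plasma (0.719% of all rows) and of water (0.603%) with mucus. Both times ssa-miR-128-2-5p and its equal ssa-miR-128-3-5p were among the 4. The call in plasma minus water fell to 0 with no filter, with DESeq2, with the miR-128 rows as 1 and with the replicate block. With no filter, 4884 rows share the adjustment; the cause of the other changes was not tested.

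The replicate block changed no count of calls for stress in plasma or mucus. It left 4 of 6 for plasma vs mucus, where ssa-miR-9a-5p and ssa-miR-212a-5p were lost and 26% of all rows were called. Changes of direction were all in results that were not called: ssa-miR-128-2-5p in plasma, -0.08 as reported, was 0.0106 with RLE factors, 0.0107 with DESeq2, 0.10 with library totals, 0.0557 with no filter, 0.12 with known miRNAs alone and 0.0478 with the replicate block, which also turned miR-218 in plasma to -0.032 and miR-9a in mucus to -0.0324. Leaving out 1 library gave -0.32 to 0.26 for ssa-miR-128-2-5p in plasma, -0.50 to 0.80 for miR-9a in plasma, -0.87 to 0.81 for miR-218 in plasma, -0.27 to 1.14 for miR-9a in mucus, -0.19 to 0.55 for miR-9a in water, -0.10 to 6.92 for miR-7a in plasma vs water, -12.28 to 1.201 for miR-7a in mucus vs water and -0.0436 to 12.73 for ssa-miR-128-2-5p in the interaction of plasma and mucus. The shares within miR-128 ranged, in percentage points, from 0.0486 to 12.6 (arm) and -0.00119 to 11.1 (copy) for plasma vs water, and from -0.138 to 0.0259 (arm) and 0.0 to 0.00358 (copy) for stressed minus control plasma. At 315428 to 591733 known counts, control water could not show the members that lay at a few ppm elsewhere.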

Other observations

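The miRNAs of the sensory cluster (miR-96, miR-182 and miR-183, which are expressed together in retina and hair cells as well as in epithelia) summed to 45860 ppm in plasma control 2, against 83.0 to 1671 ppm in the other 5 plasma libraries, 875.2 to 2584 ppm in mucus and 2139 to 6796 ppm in water. The same library had the highest level of miR-128 (5430 ppm) and of the erythrocyte marker ssa-miR-144-5p (3605 ppm) in plasma. Muscle miRNAs (8 different rows of miR-1, miR-133, miR-206 and miR-499) took 25.98 to 618.6 ppm in plasma, the highest again in plasma control 2, and were at 0 in all mucus and water libraries.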
